A study of Anas platyrhynchos and Gallus gallus and Anas rubripes with 21 samples.

Results

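The lesser scaup (*Aythya affinis*) is a diving duck that also finds food by touch. Its trigeminal ganglion (TG) transcriptome was compared here with those of 5 other ducks: Pekin duck, black duck, ruddy duck, harlequin duck and wood duck. RNA was sequenced from the TG of 3 embryos per species, taken shortly before hatching, once the inner shell membrane was broken. This point corresponded to embryonic day 25 to 26 in lesser scaup and Pekin duck, 21 to 22 in black duck, 30 to 31 in ruddy duck, 28 to 29 in harlequin duck and 28 to 31 in wood duck. Chicken embryos at day 19 to 21 served as a visually foraging outgroup. No bird carried a transgene or received a treatment. The Pekin duck and chicken eggs came from a commercial farm. The study lists the eggs of lesser scaup, black duck and harlequin duck under a wildlife research center. Those of ruddy duck are listed under a waterfowl conservancy, and those of wood duck under either. Species and source of the eggs thus cannot be told apart for Pekin duck, nor fully for ruddy duck. The deposited table held RPKM values (reads per kilobase of gene length, scaled to the mapped reads of each library), averaged by the authors over the 3 birds of a species. A gene was included where its mean over the 6 ducks was at least 1 RPKM, which held for 12157 of 20451 genes. The members described below are the 2912 genes for which the lesser scaup value lay outside the range of the other 5 ducks. Differences are lesser scaup minus the mean of the other 5 ducks on the log2(RPKM + 1) scale, which understates the change of low genes.

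The TG holds the cell bodies of the sensory neurons that innervate the face, and in birds the bill. Mechanoreceptors signal touch through mechanically gated channels such as Piezo2, whereas thermoreceptors and nociceptors use channels such as Trpm8, Trpv1 and Trpa1. The neurons are wrapped by satellite glia, their axons are myelinated by Schwann cells, and the ganglion also contains vessels, connective tissue and resident immune cells. Many ducks have a TG enriched in mechanoreceptors, and the study from which these data come asked how this enrichment varies between duck species with different feeding habits.

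Since the values of single birds are not in the table, the spread between birds is unknown, and no species level has an SD. One species set against 5 cannot give an exact permutation p below 0.167, so no test of a difference was made, and every call below is a description by size and range. The table does not give the sequencing depth of each species, and the study's methods give it only as a range over all libraries. Among the 5 other ducks, ruddy duck stood apart: 67.1% of its genes lay outside the range of its counterparts, compared with 24.0% in lesser scaup, 24.7% in Pekin duck, 19.1% in black duck, 33.0% in harlequin duck and 32.1% in wood duck. Across genes, lesser scaup was nearest to Pekin duck by Pearson's *r* (0.967 over 12157 genes) and to black duck by the median size of the difference (0.21, against 0.22 for Pekin duck). Ruddy duck was farthest by both measures, with *r* = 0.899 and a median difference of 0.56. These correlations are across genes, which are not independent replicates.

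Lesser scaup had the highest level of the 6 ducks for 1809 genes (14.9%) and the lowest for 1103 genes (9.07%). Most of these differences were small, with a median of 0.46 among the former and -0.44 among the latter. A difference of at least 2-fold, or 1 on the log2 scale, remained for 223 genes (1.83%), of which 148 were higher (1.22%) and 75 lower (0.617%) in lesser scaup. With ruddy duck left out of the comparison, 147 genes were higher (1.21%) and 81 lower (0.666%), and 116 and 56 of these belonged to the first calls. The balance between the directions moved with the scaling: quantile normalization gave 121 higher and 117 lower genes, and taking the log2 of the mean RPKM of the other ducks gave 118 and 105. By the same rule, each of the other ducks against its 5 counterparts gave 183 genes in Pekin duck (1.51%), 194 in black duck (1.6%), 448 in wood duck (3.69%), 459 in harlequin duck (3.78%) and 2564 in ruddy duck (21.1%). In bulk tissue, fewer cells of a type and less RNA per cell cannot be told apart, and this applies to every difference below.

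**Figure D1:**
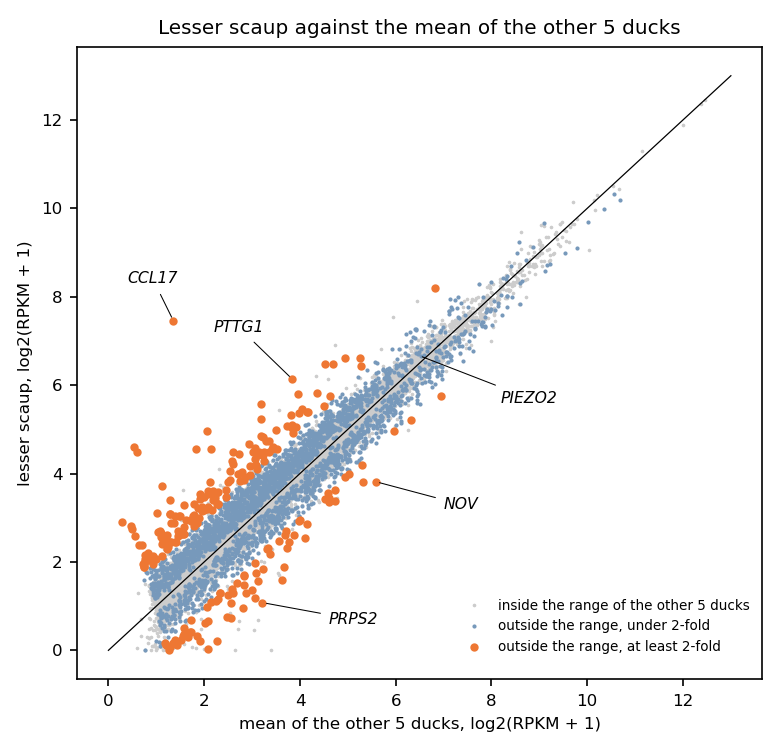
Each point is 1 of 12157 genes, with the mean of the other 5 ducks on the x axis and lesser scaup on the y axis, both as log2(RPKM + 1), and the line marks equal levels. Most genes lie near the line, 223 genes outside the range by at least 2-fold are shown in orange, and *CCL17* lies farthest above the line.

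The 2-fold members were at lower levels than genes at large. The median level over the 6 ducks was 4.79 RPKM for the higher and 6.60 RPKM for the lower genes, compared with 10.9 RPKM for all genes tested. A gap of at least 1 log2 unit between lesser scaup and the nearest other duck was present in 26 of the higher and 8 of the lower genes. The duck nearest to lesser scaup was most often harlequin duck (51 of 148) for the higher genes and wood duck (25 of 75) for the lower genes. Just past the 2-fold threshold stood *DHRS9* and *IGSF21* at a difference of 1.01, and *ERAP1* and *KCNMB2* at -1.01. Just short of it stood *MERTK* (0.997) and *NUDT7* (0.998) above, and *AIFM2* (-0.999) and *TTPA* (-0.997) below, the other ducks.

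The gene that set lesser scaup apart by the widest margin was *CCL17*, a chemokine that in mammals attracts T cells. In RefSeq's annotation of the IASCAAS_PekinDuck_T2T assembly it has no symbol (LOC101794837), so the name rests on the annotations of the deposited table. Its level was 174 RPKM in lesser scaup, against 0.738 in Pekin duck, 2.80 in black duck, 0.068 in ruddy duck, 4.07 in harlequin duck and 2.10 in wood duck. The other ducks averaged 1.96 ± 1.6 RPKM (SD, n = 5 species), and lesser scaup was 42.8 times the nearest of them. Chicken, at 0.022 RPKM, was below all ducks. The markers of leukocytes did not show a gap of this size. Of 10 measured members of the macrophage and leukocyte list, 3 were highest in lesser scaup and 1 was lowest (40%, against 24.0% of all genes). The 10 members had a median difference of 0.18, against 0.06 for all genes. Their summed level was 139 RPKM in lesser scaup and 119 to 160 RPKM in the other ducks. *CD3D*, a subunit of the T cell receptor complex, lay within the range of the other ducks with a difference of -0.43. Outside this list, and named after their values were seen, 2 genes used in T cells were past 2-fold higher: *TRAT1*, an adaptor of the T cell receptor, at 12.2 RPKM against 0.011 to 9.18 RPKM (difference 2.60), and *TAGAP*, a T cell activation gene, at 5.23 RPKM against 1.49 to 3.17 RPKM (1.08, short of 2-fold with quantile normalization). Wood duck was close to lesser scaup for *TRAT1*. *LAPTM5*, a lysosomal protein of hematopoietic cells, was the leukocyte gene that was lowest, at 5.12 RPKM against 7.79 to 19.5 RPKM, with a difference of -1.27.

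Other secreted proteins and peptides were also among the 15 genes with the widest gap above the other ducks. *SST*, the neuropeptide somatostatin, was at 5.99 RPKM in lesser scaup, against 0.226 in Pekin duck, 0.363 in black duck, 0.237 in ruddy duck, 0.984 in harlequin duck and 0.258 in wood duck. Lesser scaup was thus the only duck above 1 RPKM, with a difference of 2.33, although *SST* was measured in the chicken annotation alone. *SCUBE1*, a secreted and cell-surface glycoprotein with EGF-like repeats, was at 36.8 RPKM, against 4.76 to 13.2 RPKM in the other ducks and 24.5 RPKM in chicken (difference 2.05). *PZP*, a protease inhibitor of the alpha-2-macroglobulin family found in the duck annotation alone, was at 8.72 RPKM against 0.720 to 2.95 RPKM. *ECEL1*, a neuronal membrane metallopeptidase, was at 4.23 RPKM against 0.112 to 1.02 RPKM.

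The remaining named genes of this group have varied roles. The cytochrome P450 gene *CYP2AB2* was at 6.49 RPKM, with every other duck at or below 0.481 RPKM. *KBP* was at 54.6 RPKM against 8.06 to 23.6 RPKM. The Polycomb gene *SCML2* was at 5.37 RPKM against 0.655 to 1.45 RPKM, *IQCG*, a component of motile cilia, at 7.23 RPKM against 1.49 to 1.85 RPKM, and *WDR88* at 5.71 RPKM against 0.039 to 1.10 RPKM.

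**Figure D2:**
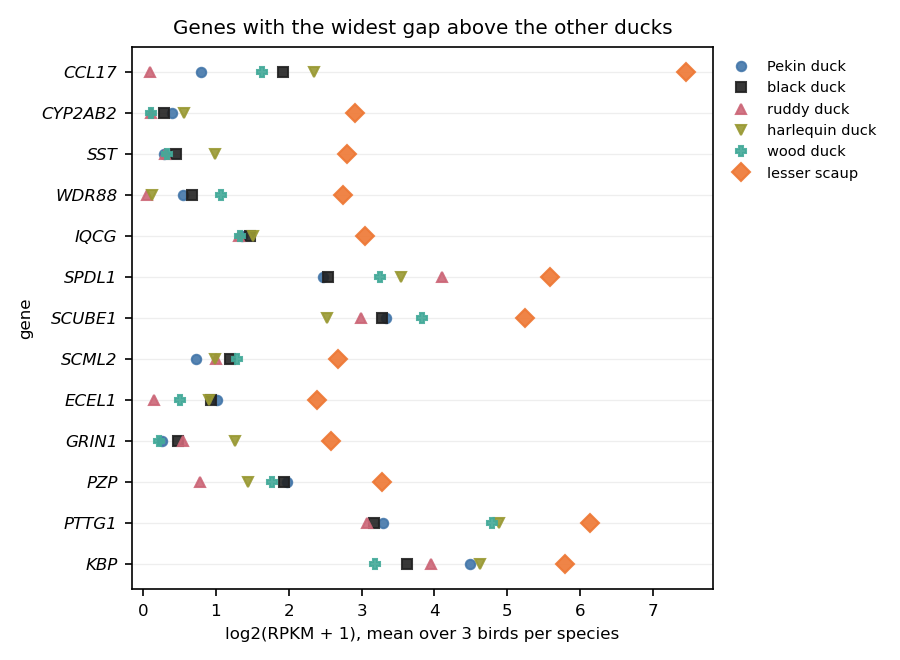
Levels of 13 of the 15 genes with the widest gap above the other ducks, 1 gene per row, with log2(RPKM + 1) on the x axis and 1 symbol per species (the mean over 3 birds). Lesser scaup, the orange diamond, lies to the right of every other duck in each row, at 174 RPKM for *CCL17* and 69.1 RPKM for *PTTG1*.

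Among the higher genes with the widest gap, *SPDL1* and *PTTG1* act in chromosome segregation. Such groupings of the higher and lower genes by known role were made after their values were seen. *SPDL1*, which recruits dynein to kinetochores, was at 46.8 RPKM in lesser scaup, against 4.52 in Pekin duck, 4.83 in black duck, 16.2 in ruddy duck, 10.7 in harlequin duck and 8.55 in wood duck (difference 2.40). *PTTG1*, the securin that restrains separase until anaphase, was at 69.1 RPKM, against 8.80, 7.96, 7.45, 28.6 and 26.7 RPKM in the same order of ducks (difference 2.29). Harlequin and wood duck were closest to lesser scaup for *PTTG1*. The centromere genes *CENPK* (10.0 RPKM), *CENPH* (20.3 RPKM) and *CENPT* (22.7 RPKM), named after their values were seen, were also past 2-fold, but all 3 fell short of it with the median of the other ducks, as did *CENPH* and *CENPT* with ruddy duck left out and *CENPT* with either scaling. In a list of 17 measured cell cycle genes that holds none of these 5, 6 genes were highest and 2 lowest in lesser scaup (47.1%, against 24.0% of all genes). None was past 2-fold and the median difference was 0.39. The summed level of the list was 167 RPKM in lesser scaup, within 120 to 213 RPKM in the other ducks. *RRM2*, a subunit of ribonucleotide reductase, was highest at 7.52 RPKM against 2.5 to 6.53 RPKM, whereas *CDK1* (18.4 RPKM) lay below harlequin duck (21.8 RPKM) and *PCNA* was lowest in lesser scaup (difference -0.43).

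Among the genes lowest in lesser scaup, several encode extracellular signals and their receptors. *NOV*, also called CCN3, is a secreted matricellular protein. Its level was 13.1 RPKM in lesser scaup, against 60.6 in Pekin duck, 48.8 in black duck, 45.8 in ruddy duck, 46.1 in harlequin duck and 35.9 in wood duck. The other 5 ducks averaged 47.4 ± 8.84 RPKM (SD, n = 5 species), all more than 2-fold above lesser scaup, and chicken was at 28.7 RPKM. *GFRAL*, the receptor for the hormone GDF15, was at 2.02 RPKM, against 9.07 in Pekin duck, 6.37 in black duck, 12 in ruddy duck, 14.4 in harlequin duck and 18.5 in wood duck (difference -2.03). *IL17D*, a cytokine of the interleukin-17 family, was at 2.68 RPKM against 8.26 to 17.9 RPKM. *PDGFC*, a platelet-derived growth factor, was at 1.89 RPKM against 4.67 to 6.36 RPKM. The axon guidance ligand *SEMA3D* (4.46 RPKM against 8.04 to 26.1 RPKM, difference -1.33), chosen after its values were seen, was also lowest in lesser scaup.

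A second group of the lower genes encodes metabolic and redox enzymes. *PRPS2*, which makes the ribose phosphate precursor of nucleotides, was at 1.11 RPKM in lesser scaup, against 5.56 in Pekin duck, 12.3 in black duck, 10.5 in ruddy duck, 10.3 in harlequin duck and 5.09 in wood duck. With a difference of -2.14 it had the largest difference of the lower genes, and chicken was far above all ducks at 58.5 RPKM. *TXNRD1*, the cytosolic thioredoxin reductase, was at 6.30 RPKM against 13.4 to 20.1 RPKM. It was the 1 gene past 2-fold among 18 measured genes of detoxification and oxidative stress. Of these, 3 were lowest and none was highest in lesser scaup (16.7% outside the range, against 24.0% of all genes). *FN3K*, which repairs glycated proteins, was at 9.87 RPKM against 21.3 to 28.0 RPKM. *CPZ*, a secreted carboxypeptidase, was at 1.77 RPKM against 4.38 to 11.9 RPKM, and *ABCC13*, a transporter gene in the chicken annotation alone, at 1.46 RPKM against 3.69 to 7.00 RPKM.

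*BBS5*, a subunit of the BBSome that carries cargo into cilia, was at 11.4 RPKM in lesser scaup against 21.9 to 31.3 RPKM. *LNP1* was at 0.015 RPKM in lesser scaup and 1.47 to 13.3 RPKM in the other ducks. The orphan receptor gene *GPR162* was at 3.87 RPKM against 7.86 to 13 RPKM, and it was the only one of the 15 lower genes with the widest gap that fell short of 2-fold under an alternative setting, namely with the median of the other ducks or with wood duck left out.

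**Figure D3:**
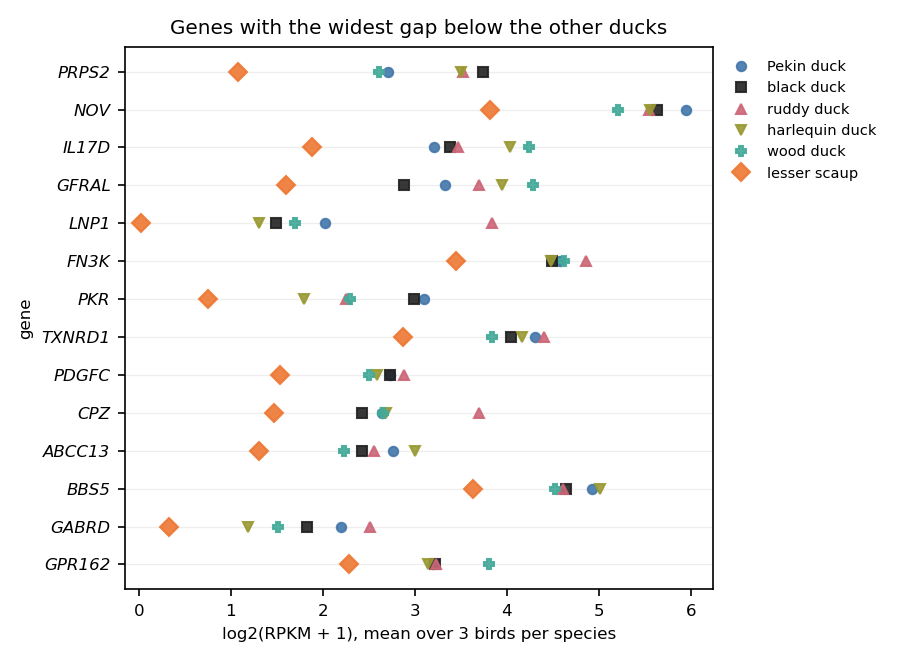
Levels of 14 of the 15 genes with the widest gap below the other ducks, 1 gene per row, with log2(RPKM + 1) on the x axis and 1 symbol per species (the mean over 3 birds). Lesser scaup, the orange diamond, lies to the left of every other duck in each row, at 13.1 RPKM for *NOV* and 1.11 RPKM for *PRPS2*.

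Ligand-gated ion channels were the gene list with the most 2-fold members. Of 45 measured subunits of glutamate, GABA-A, glycine, nicotinic acetylcholine, P2X and acid-sensing channels, 11 were highest and 6 lowest in lesser scaup (37.8%, against 24.0% of all genes). Past 2-fold were 7 higher and 3 lower genes, or 22.2% of the list against 1.83% of all genes tested. The list was written with earlier results of these data known, and the share is a description. The median difference of the list was 0.16, against 0.06 for all genes, and its summed level was 573 RPKM in lesser scaup and 463 to 569 RPKM in the other ducks, so that single subunits rather than the total stood out.

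Among the glutamate receptors, *GRIN1*, the subunit present in every NMDA receptor, was at 4.98 RPKM in lesser scaup, against 0.197 in Pekin duck, 0.401 in black duck, 0.468 in ruddy duck, 1.39 in harlequin duck and 0.168 in wood duck. *GRIN1* in lesser scaup was 3.57 times the nearest duck (difference 2.02), whereas *GRIN2A* (0.12) and *GRIN2B* (0.38), which encode its partner subunits, lay within the range of the other ducks. The AMPA receptor subunit *GRIA4* was at 20.8 RPKM, against 5.01 in Pekin duck, 6 in black duck, 1.47 in ruddy duck, 10.2 in harlequin duck and 9.93 in wood duck. The AMPA receptor subunit *GRIA3* was at 41.0 RPKM, against 14.5, 14.4, 14.6, 17.0 and 24.2 RPKM in the same order. Both were highest in lesser scaup by a clear margin, with differences of 1.72 and 1.25, while *GRIA1* (-0.22) and *GRIA2* (0.08) stayed within the range.

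The GABA-A receptor subunits went in both directions. *GABRA3* was at 5.28 RPKM in lesser scaup, against 2.11 in Pekin duck, 2.34 in black duck, 0.461 in ruddy duck, 1.32 in harlequin duck and 0.256 in wood duck (difference 1.56). *GABRG1* was at 38.9 RPKM, against 34.7, 29.3, 8.26, 5.77 and 7.36 RPKM in the same order (difference 1.49), so that Pekin and black duck were close to lesser scaup and the other ducks were several-fold lower. *GABRA4* was at 11.3 RPKM, near wood duck (10.3 RPKM), and its difference of 1.16 fell short of 2-fold with ruddy duck (0.489 RPKM) left out. *GABRD*, the subunit of extrasynaptic receptors, was at 0.254 RPKM, against 3.58 in Pekin duck, 2.56 in black duck, 4.72 in ruddy duck, 1.28 in harlequin duck and 1.85 in wood duck (difference -1.52).

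Of the remaining channels, the ATP-gated *P2RX7* was at 22.8 RPKM in lesser scaup and in a narrow span of 8.03 to 10.7 RPKM in the other ducks (9.82 ± 1.2 RPKM, SD, n = 5 species). *P2RX3*, the P2X subunit of nociceptors, lay within the range of the other ducks (difference 0.51). The nicotinic receptor subunit *CHRNA6* was lowest in lesser scaup, at 14.9 RPKM against 20.7 to 49.5 RPKM, with a difference of -1.03 that fell short of 2-fold without black duck or without harlequin duck. *CHRNB3* (-0.68), which encodes its usual partner, was lowest as well.

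**Figure D4:**
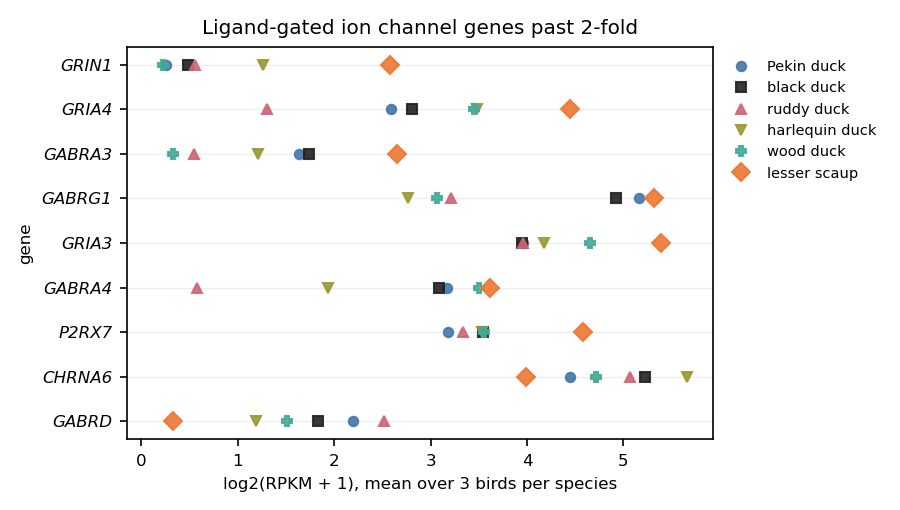
Levels of 9 of the 10 ligand-gated ion channel genes past 2-fold, 1 gene per row, with log2(RPKM + 1) on the x axis and 1 symbol per species (the mean over 3 birds). Lesser scaup, the orange diamond, is rightmost for 7 genes and leftmost for *CHRNA6* and *GABRD*, and Pekin and black duck lie close to it for *GABRG1*.

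Further synaptic genes past 2-fold, chosen after their values were seen, were the secreted synapse organizers *CBLN1* (22.8 RPKM against 4.17 to 10.3 RPKM, chicken annotation alone) and *CBLN2* (5.47 RPKM against 0.323 to 2.40 RPKM), and the AMPA receptor auxiliary subunit *SHISA6* (9.56 RPKM against 2.38 to 6.86 RPKM). In the other direction, the synapse organizer *LRRTM3* was lowest in lesser scaup, at 1.25 RPKM against 2.48 to 5.73 RPKM (difference -1.11, short of 2-fold without ruddy duck). The glutamate transporter *SLC1A2* was at 21.3 RPKM in lesser scaup, against 6.15 in Pekin duck, 12 in black duck, 7.94 in ruddy duck, 7.14 in harlequin duck and 4.36 in wood duck (difference 1.45). The row named *SLC6A11*, a GABA transporter, is in the chicken annotation alone. It was at 13 RPKM, close to harlequin duck (10.5 RPKM) and above the remaining ducks (0.814 to 3.71 RPKM), with a difference of 1.68. The row LOC106018979, in the duck annotation alone, is called *SLC6A11* in RefSeq's annotation of the IASCAAS_PekinDuck_T2T assembly. This row was also highest in lesser scaup, at 7.2 RPKM against 5.34 RPKM in harlequin duck, the nearest, with a smaller difference (1.26). Both rows are counted among the called genes, but only the row named *SLC6A11* is in the list of solute carriers. Across 215 measured solute carriers, 4 genes (1.86%, against 1.83% of all genes) were past 2-fold, all higher, which included the cation transporters *SLC22A4* (difference 1.26, short of 2-fold without ruddy duck) and *SLC24A3* (1.14, short of 2-fold without wood duck). *TNR*, an extracellular matrix protein of the nervous system, was at 10.5 RPKM against 0.918 to 7.45 RPKM, and fell short of 2-fold without wood duck. Since many of these genes are also used in the brain, markers of brain tissue were examined: 4 of 8 listed genes in the table were measured, with a summed level of 293 RPKM in lesser scaup and 245 to 293 RPKM in the other ducks. Most of this sum came from *SLC17A6* (157 RPKM against 138 to 162 RPKM) and *AQP4* (131 RPKM against 87.8 to 138 RPKM). Both were abundant in every duck, so the sum could not show a small part of brain tissue. *OLIG2*, of the oligodendrocyte lineage, was highest in lesser scaup at 4.53 RPKM against 0.387 to 3.86 RPKM, and *GAD1*, the GABA-synthesizing enzyme, was at 0.747 RPKM within a range of 0.085 to 4.19 RPKM. The part of other tissue in the synaptic genes was not tested.

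In contrast, the genes that mark mechanoreceptors differed little. *PIEZO2*, which encodes the main channel of touch, was at 101.2 RPKM in lesser scaup, against 101.8 in Pekin duck, 99.7 in black duck, 92.4 in ruddy duck, 68.3 in harlequin duck and 81.5 in wood duck. Lesser scaup was next to Pekin duck at the upper end of the range, and its difference from the others was 0.20. Chicken was below all ducks at 48.2 RPKM. Of 26 measured mechanoreceptor and large-fiber genes, *CALB1* (calbindin, 6.37 RPKM against 2.37 to 5.79 RPKM) was the only gene outside the range, or 3.85% of the list against 24.0% of all genes, none was past 2-fold, and the median difference was 0.07. *NTRK2*, the receptor for brain-derived neurotrophic factor, was at 42.5 RPKM within 41.3 to 58.8 RPKM. *PVALB*, parvalbumin, had the largest difference of the list (-0.97), at 128 RPKM between harlequin duck (90.8 RPKM) and wood duck (254 RPKM).

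Markers of thermoreceptors and nociceptors had a median difference of -0.16 over 20 measured genes, against 0.06 for all genes. Apart from *SST*, described above, no gene of the list was past 2-fold and 3 were lowest in lesser scaup. With *SST*, 20% of the list lay outside the range, against 24.0% of all genes. *TRPV1*, the capsaicin and heat receptor of mammals, was at 21.5 RPKM, against 26.8 in Pekin duck, 22.4 in black duck, 24.7 in ruddy duck, 48.8 in harlequin duck and 55.7 in wood duck. Lesser scaup was thus close to Pekin, black and ruddy duck, and harlequin and wood duck were high. *GFRA3*, the co-receptor for artemin, was at 71.5 RPKM against 81.8 to 137 RPKM, and *GFRA1*, the co-receptor for GDNF, at 18.3 RPKM against 19.1 to 25.5 RPKM. *TRPA1*, the receptor for irritants, was at 29.9 RPKM, next to Pekin duck (29.1 RPKM), with wood duck at 99.2 RPKM. The cold receptor *TRPM8*, at 27.4 RPKM, lay within the range of 20.7 to 73.3 RPKM.

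Voltage-gated sodium channels lay above the mean of the other ducks in all 12 measured subunits. Their median difference was 0.28, against 0.06 for all genes. None was past 2-fold, and 3 lay outside the range (25%, against 24.0% of all genes). *SCN2A* was at 17.9 RPKM in lesser scaup, against 7.21 in Pekin duck, 8 in black duck, 9.63 in ruddy duck, 9.59 in harlequin duck and 10.1 in wood duck. *SCN3A*, in the chicken annotation alone, was at 3.76 RPKM against a span of 1.88 to 2.09 RPKM. Both stood clear of a tight group of other ducks. The accessory subunit *SCN2B* was highest by a small margin (29.9 RPKM against 4.80 to 28.5 RPKM). Of 63 measured potassium channel genes, 16 lay outside the range (25.4%, against 24.0% of all genes), with *KCNS1* (4.63 RPKM against 0.267 to 4.06 RPKM, difference 1.29) and *KCNMB2* (3.96 RPKM against 6.87 to 13 RPKM, difference -1.01) past 2-fold. *KCNMB2*, which encodes a regulatory subunit of calcium-activated channels, fell short of 2-fold without ruddy duck or without wood duck. Among 18 measured calcium channel subunits and 12 TRP channels, none was past 2-fold.

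**Figure D5:**
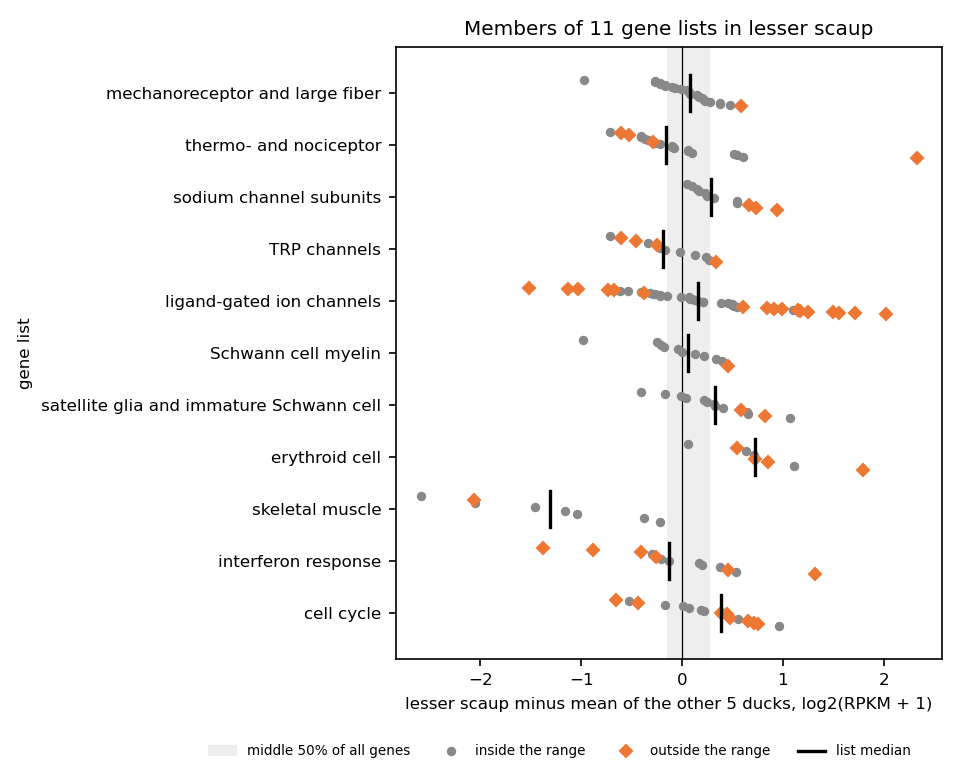
Each symbol is a gene, with the difference between lesser scaup and the mean of the other 5 ducks in log2(RPKM + 1) on the x axis and 11 gene lists on the y axis, and the grey band spans the middle 50% of all genes. Mechanoreceptor genes lie close to 0 with a median of 0.07, ligand-gated channels extend to both sides, and skeletal muscle genes lie to the left with a median of -1.31.

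Pan-neuronal genes were abundant in every duck. Their summed level over 10 measured genes was 7767 RPKM in lesser scaup and 7971 to 11456 RPKM in the other ducks. These genes mark neurons and cannot tell the TG from other nervous tissue. *UCHL1* (1173 RPKM against 1294 to 2078 RPKM) and *STMN2* (1275 RPKM against 1302 to 1949 RPKM), both abundant in neurons, were lowest in lesser scaup by less than 2-fold. Schwann cell myelin genes were within the range for 11 of 12 measured members, with 8.33% outside it against 24.0% of all genes. *FA2H*, an enzyme of myelin lipid synthesis, was highest in lesser scaup (17.6 RPKM against 6.97 to 15.3 RPKM). Satellite glia and immature Schwann cell genes had a median difference of 0.32 over 14 genes, with 2 outside the range (14.3%, against 24.0% of all genes). These were the glial potassium channel *KCNJ10* (19.8 RPKM against 6.09 to 15 RPKM) and the matrix protein *SPARC* (812 RPKM against 402 to 648 RPKM). The glial glutamate transporter *SLC1A3*, at 31.9 RPKM, lay just below harlequin duck (33.8 RPKM) and well above wood duck (3.14 RPKM).

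Markers of blood, muscle and cartilage moved between species. Of 8 measured erythroid genes, 4 were highest in lesser scaup, against 14.9% of all genes, and the median difference was 0.72, against 0.06. The alpha-globin gene *HBA1*, in the chicken annotation alone, was at 88.1 RPKM in lesser scaup, against 27.3 in Pekin duck, 15.2 in black duck, 46.1 in ruddy duck, 16.4 in harlequin duck and 28.4 in wood duck. The summed erythroid level was 364 RPKM in lesser scaup, 390 RPKM in ruddy duck and 112 to 243 RPKM in the remaining ducks. Skeletal muscle genes summed to 30.4 RPKM in lesser scaup, close to wood duck (29.5 RPKM) and Pekin duck (33.2 RPKM), and to 89.1 RPKM in ruddy duck, 113 RPKM in harlequin duck and 259 RPKM in black duck. The muscle troponin genes *TNNC2* (0.159 RPKM against 0.240 to 26.0 RPKM) and *TNNC1* (0.154 RPKM against 0.640 to 7.05 RPKM) were past 2-fold lower, as were *MYOZ1* and *CKMT2*, both short of it without black duck. Of 8 measured members of the muscle list, *TNNC2* alone lay outside the range (12.5%, against 24.0% of all genes). *TNNC1*, *MYOZ1* and *CKMT2* are not in that list. Cartilage genes were past 2-fold higher in 2 of 10 measured members, or 20% past 2-fold against 1.83% of all genes. No other member lay outside the range, so the share outside it was also 20%, against 24.0% of all genes. The collagen *COL2A1* was at 55.5 RPKM in lesser scaup and 47.3 RPKM in harlequin duck, against 7.00 to 32.1 RPKM in the remaining ducks. The link protein *HAPLN1* was at 19.1 RPKM against 4 to 13.2 RPKM. The summed cartilage and bone level was 121 RPKM in lesser scaup and 37.0 to 173 RPKM in the other ducks. The part of these cell types in other differences was not tested.

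Antiviral genes included 1 gene that was low in 3 rows of the table. *EIF2AK2* encodes PKR, a kinase that is activated by double-stranded RNA and shuts off translation. Its row was at 2.60 RPKM in lesser scaup, against 14.5 in Pekin duck, 11.8 in black duck, 5.40 in ruddy duck, 5.9 in harlequin duck and 7.2 in wood duck (difference -1.38). The copy named *EIF2AK2.1* was at 1.15 RPKM against 1.5 to 7.44 RPKM, and the row named *PKR*, whose duck gene identifier (110353866) is called *EIF2AK2* in RefSeq's annotation of the IASCAAS_PekinDuck_T2T assembly, was at 0.687 RPKM against 2.46 to 7.58 RPKM. Reads may be shared between these copies, so they are uncertain as separate measurements. Across 13 measured interferon response genes the directions were mixed, with 4 lowest and 2 highest in lesser scaup (46.2%, against 24.0% of all genes). The median difference was -0.13. *SAMD9L*, an antiviral factor, was highest at 6.68 RPKM against 0.968 to 4.27 RPKM (difference 1.32). Among 17 heat shock genes, *HSP90AB1*, a constitutive chaperone, was lowest at 1.10 RPKM against 2.62 to 8.69 RPKM. All ducks were far below chicken (83.7 RPKM) for *HSP90AB1*, and whether its row measures the duck gene in full was not tested.

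The annotation in which a gene was found was related to how often it was called. Genes present in both annotations were past 2-fold higher in 96 of 9795 cases (0.98%) and lower in 64 (0.653%). For genes in the duck annotation alone the corresponding values were 34 of 1251 (2.72%) and 7 (0.56%), and for genes in the chicken annotation alone 18 of 1111 (1.62%) and 4 (0.36%). Rows named without a gene symbol made up 31 of the 148 higher and 3 of the 75 lower genes. The share of such rows among all genes tested was not counted, so no excess or deficit is read from these counts. Of the 160 called genes in both annotations, the chicken level lay on the lesser scaup side of the midpoint for 26 of 96 higher genes (27.1%) and 27 of 64 lower genes (42.2%). The same held for 33% of all genes above the range in lesser scaup and 60.4% of all genes below it, which are larger shares than those of the called genes. For these genes the midpoint lay nearer the other ducks (median difference 0.46 and -0.44, against 1.29 and -1.23 for called genes). The shares are therefore not directly comparable. Among all 9795 genes in both annotations, chicken was at least 0.5 log2 units above the mean of the other ducks in 18.5% and at least as far below it in 36.5%.

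Some of the higher genes shared a pattern that was not particular to lesser scaup. In 29 of the 12157 genes, both black duck and harlequin duck were more than 4 times below every other duck, a rule set after the values were seen. The duck *CHD1W*, a gene of the female-specific W chromosome, was one of them, at 3.71 RPKM in Pekin duck, 0.543 in black duck, 5.04 in ruddy duck, 0.428 in harlequin duck, 4.09 in wood duck and 4.33 in lesser scaup. The W-linked genes *ATP5A1W*, *ST8SIA3W* and *SPIN1W*, all in the chicken annotation alone, did not meet the rule. *ATP5A1W* was highest in black duck (301 RPKM) and *ST8SIA3W* in harlequin duck (4.65 RPKM). *SPIN1W* was at 12.4 RPKM in black duck and 13.8 RPKM in harlequin duck, against 16.5 to 22.0 RPKM in the others. Such rows hold duck reads aligned to chicken copies, and they may include reads of related copies, which was not tested. No conclusion on W-linked genes is drawn from them. Of the 148 higher genes, 7 met the rule. A gene lowest in lesser scaup cannot meet it. Low levels in black and harlequin duck also favour a higher call, so no conclusion is drawn from this count. The row named *UBQLN1* was at 21.4 RPKM in lesser scaup, 14.5 to 18.6 RPKM in Pekin, ruddy and wood duck, 0.062 RPKM in black duck and 0.601 RPKM in harlequin duck. It has no symbol (LOC101793250) in RefSeq's annotation of the IASCAAS_PekinDuck_T2T assembly. The row named *VCP* was at 11.1 RPKM in lesser scaup, 7.49 to 10.0 RPKM in Pekin, ruddy and wood duck, 0.538 RPKM in black duck and 0.383 RPKM in harlequin duck. Chicken was higher, at 52.5 RPKM for *UBQLN1* and 110 RPKM for *VCP*. Whether these rows measure the genes they are named for or related copies was not tested. For *UBQLN1* and *VCP* lesser scaup was close to Pekin, ruddy and wood duck, whereas *GPBP1* was at 7.53 RPKM in lesser scaup, 4.08 in Pekin duck, 5.43 in wood duck and 1.11 in ruddy duck. The labels do not give the sex of the birds, and its part in these differences was not tested.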

How the data were processed

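Total RNA from the TG of 21 late embryos (7 species, 3 birds each) was made into strand-specific mRNA libraries and sequenced. After trimming (Trimmomatic 0.36), the authors aligned reads of every species to a duck assembly (BGI_duck_1.0) as well as a chicken assembly (GRCg6a) using STAR 2.5.4b. Reads on protein-coding genes were counted with Subread 1.6.2 (featureCounts). The authors then derived RPKM in edgeR 3.22.3, merged both annotations on gene symbol and deposited RPKM averaged over the 3 birds of a species. Counting used default parameters, which ignore strand, so overlapping antisense genes cannot be separated. A lesser scaup read can be lost where its sequence departs from the genome it is aligned to, and this was not tested. Levels of single birds, depth and sequencing lane were not analysed here, and the labels name no batch.

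From the table, with python 3.11.15, numpy 2.4.6 and pandas 2.3.3, lesser scaup was compared with the mean of the other 5 ducks on log2(RPKM + 1), where the 6 ducks averaged 1 RPKM or more. A gene was called where lesser scaup lay outside the range of the other 5 and the difference was at least 1. The calculation was checked on simulated data. The design foresaw values for single birds, which the table does not give, so no test, standard error or interval is reported. An SD is the spread between 5 species.

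The genes named are *PIEZO2*, in each direction the 15 called genes with the widest gap to the nearest other duck and a proper gene symbol without a copy suffix, the called members of gene lists and, for lists without one, up to 4 members of largest difference. Only part of these is described in full, and some genes that fall under this rule are not reported here. The members, the gene lists and the rule were chosen with earlier results of these data known. Alternatives were another pseudocount (0.1), no filter or a filter at 5 RPKM, the log2 of the mean or the median of the other ducks, scaling by the median ratio, quantile normalization, genes in both annotations alone, and each of the other ducks left out. Gene names were also looked up by duck gene identifier in RefSeq's annotation of IASCAAS_PekinDuck_T2T, in which 177 of 200 called genes with such an identifier were found. Some of those found have no symbol in the annotation of this assembly, so their names rest on the annotations of the deposited table. Besides *CCL17* and *UBQLN1*, these include *GABRA3*, *PZP*, *CYP2AB2*, *KCNMB2*, *MAOB*, *SAMD9L*, *SLC22A4* and *SLC24A3*. As this assembly differs from that of the table, no coordinates are given.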

Additional observations from a re-analysis of the deposited data

Results flagged for a closer look

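In 16 of 115 sets of 6 duck values (summed levels of gene lists and levels of single genes), 1 duck lay so far from the other 5 that its gap to the nearest, as a share of the whole range, passed Dixon's critical value of 0.625. Chance gives about 1 in 20 such sets where the values did not choose them. That rate cannot be applied to the summed levels, since the gene lists were written with earlier results of these data known. Of the summed levels, 3 of 14 passed. The single genes were chosen by the size of the lesser scaup difference, so for them, and for the outlying lesser scaup values in particular, the gap is a description without a chance rate. The genes called past 2-fold were left out.

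Lesser scaup was the outlying duck in 2 sets, both sodium channel genes. It was highest for *SCN2A*, with 0.728 of the range between it and wood duck, and for *SCN3A*, with 0.888 of the range between it and harlequin duck. In both genes the other 5 ducks lay close together.

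Ruddy duck was the outlying duck in 11 sets. It was highest for the summed pan-neuronal level (0.627), the myelin protein gene *PMP2* (0.704), the tight junction gene *CLDN1* (0.646), the keratin gene *KRT19* (0.854), the thyroid hormone deiodinase gene *DIO3* (0.701), *TRPV2* (0.696) and *HOXD8* (0.678). It was lowest for the neuronal splicing factor gene *RBFOX3* (0.655), the neurotrophin receptor gene *NGFR* (0.625), *FA2H* (0.644) and the clock gene *CRY2* (0.706). Black duck was highest for the summed skeletal muscle level (0.637), wood duck lowest for the summed fibroblast and meninges level (0.777) and harlequin duck highest for *TSHB*, the beta subunit of thyrotropin (0.686).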

How the results depend on the processing

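No direction of a called value was reversed under the 13 alternatives. This was largely fixed by the rule, since a called gene lay beyond all 5 other ducks. Only scaling by the median ratio or by quantiles could have reversed a direction. The number of genes past 2-fold, 148 higher and 75 lower, depended on the treatment of low values: a pseudocount of 0.1 gave 256 and 142, and a filter at 5 RPKM, which left 8659 genes, gave 71 and 43. Without a filter the numbers were 180 and 75. Quantile normalization gave 121 and 117, scaling by the median ratio 131 and 90, the median of the other ducks 132 and 64, and genes in both annotations alone 96 and 64. Scaling by the median ratio or by quantiles shifted the median difference of all genes by -0.05 and -0.06. With 1 of the other ducks left out in turn, 147 to 211 genes were higher and 81 to 109 lower. Of the called genes, 92 of 148 higher and 40 of 75 lower were past 2-fold under all alternatives in which they were tested. Among the 15 with the widest gap, 15 higher and 14 lower genes were. These were chosen for their gap, which was at least 1.177 log2 units in the higher genes. Apart from the rescalings, no alternative could therefore bring those higher genes under 2-fold, and their count is not a test of stability. For ligand-gated ion channels, 5 to 10 genes were higher and 2 to 3 lower over the alternatives. No paired analysis was possible because the table gives 1 mean per species and no values for single birds, and for the same reason leaving out each bird was not run. The table gives no depth per species, so no counting error is given for genes near 1 RPKM.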

Other observations

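Several genes of connective and other tissues not described above, chosen after their values were seen, were also past 2-fold in lesser scaup. *SFRP4*, a secreted Wnt antagonist, was at 15.7 RPKM against 2.04 to 9.56 RPKM in the other ducks, and *PLAT*, the tissue plasminogen activator, at 25.8 RPKM against 5.7 to 17.4 RPKM. *KNG1*, the precursor of bradykinin, was at 32.8 RPKM against 5.68 to 26.5 RPKM. *EDN1*, the vasoconstrictor peptide endothelin-1, was at 3.12 RPKM against 0.45 to 1.55 RPKM, and *MAOB*, which degrades monoamines, at 15.3 RPKM against 4.17 to 9.01 RPKM. *NPY2R*, a receptor for neuropeptide Y, was lowest in lesser scaup at 0.964 RPKM against 2.03 to 6.6 RPKM, but fell short of 2-fold without ruddy duck.

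In the order of tested genes on the newer Pekin duck assembly, *CCL17* stood beside LOC101795038, which was also highest in lesser scaup (7.26 RPKM against 1.1 to 4.02 RPKM). Neither gene has a symbol in the annotation of that assembly. *PERP* and *PERP1*, neighbours with the same root of name, went in opposite directions: *PERP* was at 8.89 RPKM against 1.1 to 6.73 RPKM, and *PERP1* at 0.185 RPKM against 0.564 to 3.29 RPKM. Reads may be shared between such copies, and this was not tested.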
